A study of Mus musculus with 6 samples.

Results

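The RNA described here is that of the corpus callosum, the tract of axons that joins the cerebral hemispheres, in wild-type (WT) mice on postnatal day 4. The 3 samples whose titles give WT were taken, of 6 in the series, and the other genotype was not analysed here. Genes were ordered by their mean level over the 3 samples and described by their spread between them. Per the labels, the genotype is WT and the mice are B6, with no further strain, allele or sex given. Their brains were frozen in embedding compound and cut at 60 µm, and the tract was dissected from the sections by hand. Polyadenylated RNA was captured on beads, and the library kit named in the labels does not mark strand. The series asks how m6A, a methyl mark on mRNA, bears on mRNA in developing axons, and the tract was taken as tissue rich in axons of layer 2/3 cortical neurons. The labels do not say that the samples came from separate mice, so the spread given here, a standard deviation (SD) with n = 3 throughout, may be technical. There is 1 group, so no test was run.

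The corpus callosum consists of axons whose cell bodies lie in the cortex, with glia and blood vessels between them. In the first postnatal week its axons are still growing and mostly lack myelin, while precursors of oligodendrocytes, the myelin-forming glia, divide and begin to differentiate in the tract. Growing axons hold their own mRNAs, among them transcripts for cytoskeletal, ribosomal and mitochondrial proteins, and translate them locally. The same transcripts are also made in glia, so a dissected tract yields the mixture, in which a smaller number of cells and less RNA per cell cannot be told apart.

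The samples held 843647, 1268430 and 860073 expected counts, the estimated number of fragments per gene, in WT replicates 1, 2 and 3, the order used for every set of 3 values below. Of 24411 genes, 10608, 11110 and 10591 had a count above 0. Levels are in TPM, a unit scaled to transcript length and to the same total in each sample. Over the 3 samples 7718 genes reached 1 TPM in every sample, 3517 reached 10 TPM and 842 reached 100 TPM, while 11970 genes had no count in any sample. A count of 0 allows up to 3 counts, or 2.37 to 3.56 CPM, counts scaled to the sample's total, and covers counting error only.

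WT replicate 2 stood apart from the other 2 samples. Levels of single genes are mostly given for each sample, but many sums over gene lists are given only as mean ± SD. Of the 34 gene lists examined, the sum was highest in replicate 2 for 16, in replicate 1 for 15 and in replicate 3 for 3. Replicate 2 had 1.5 times the counts of replicate 1 and a shorter mean fragment, 304 bases against 332 and 339. Its extra counts were not spread evenly over genes, and the part that depth, fragment length and these uneven counts have in the spread of any gene was not tested. Among the 51 genes with a mean of 2000 counts or more the median ratio of counts between replicates 2 and 1 was 1.01, so that Eef2, an elongation factor of translation, had 4338, 4374 and 4331 counts. Among the 816 genes with a mean of 100 to 200 counts the median ratio was 2.64. Between replicates 3 and 1 the median ratio lay between 0.923 and 1.08 at every level. Over all genes, where the points share libraries and are no replicates of each other, log2(TPM + 1) correlated with r = 0.883 between replicates 1 and 2, 0.929 between 1 and 3, and 0.895 between 2 and 3. All genes include the 11970 with no count in any sample. Among the 10855 genes at 1 TPM or more in at least 1 sample, r was lower, at 0.758, 0.864 and 0.791 for the same pairs. Among the 500 highest genes the order differed: r was 0.553 between replicates 1 and 2, 0.702 between 1 and 3, and 0.771 between 2 and 3.

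A small number of genes held much of the RNA. The 100 highest genes took 45.6% ± 6.92 of the TPM in the 3 samples, with 50.8%, 37.7% and 48.1% in replicates 1, 2 and 3. It took 96, 205 and 110 genes to reach 50% of the TPM. The share was thus lowest in replicate 2, whose middle-ranked genes stood higher. By RefSeq type, protein-coding genes took 97.6% ± 0.275 of the TPM and long noncoding RNAs 0.535% ± 0.0478.

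**Figure D1:**
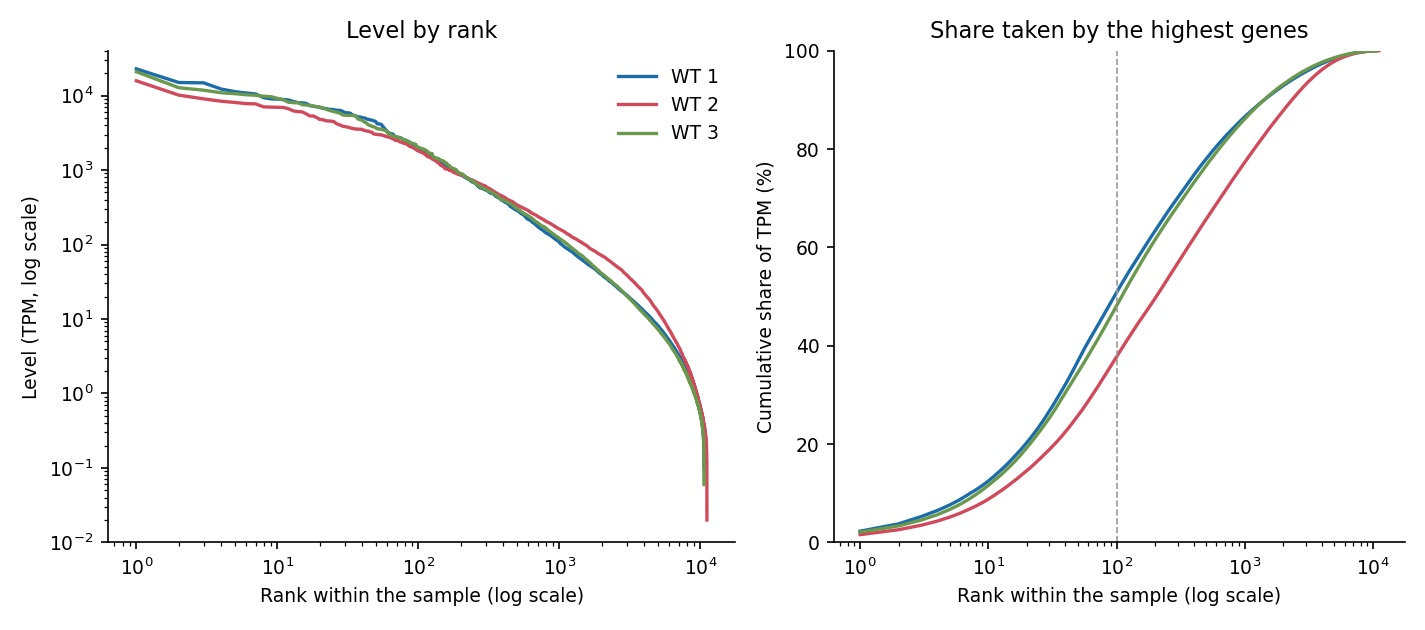
Level of each gene in TPM (left, log scale) and cumulative share of TPM in % (right) against the gene's rank within the sample (log scale), 1 line per WT sample and, on the right, a dashed line at rank 100. At that rank the samples stand at 50.8%, 37.7% and 48.1%, and the line of WT replicate 2 in the left panel lies below the others at the highest ranks and above them in the middle of the range.

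Tmsb4x, thymosin beta 4, which binds actin monomers, was the most abundant transcript at 22859.6, 15790.3 and 20929 TPM, or 1.99% ± 0.365 of all TPM. Fabp7, a fatty-acid-binding protein of radial glia and immature astrocytes, was next at 14979.8, 10146 and 12756 TPM. Both were lowest in replicate 2, as were most of the 40 highest genes. Of the 40 highest genes, 18 were on the list of ribosomal proteins, among them Rplp1 at 14825, 7739 and 11813 TPM and Rps12 at 7322, 9034 and 10602 TPM. Tpt1, a translationally controlled protein whose mRNA shares its regulation with ribosomal protein mRNAs, stood at 12232, 7047 and 10918 TPM. The elongation factor Eef1a1 stood at 9374, 6957 and 9191 TPM.

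The other places among the highest 40 went to a few kinds of genes. Cst3, a secreted protease inhibitor of astrocytes and microglia, stood at 10817, 8082 and 9794 TPM and the lipid carrier Apoe at 6976, 6214 and 6810.1 TPM. Tuba1a, the main alpha tubulin of growing neurons, stood at 10525, 8398 and 8776 TPM and Tubb2b, a beta tubulin, at 5047, 4015 and 3833 TPM. These 4 genes differed by at most 1.34-fold between samples. The ferritin chains Ftl1 and Fth1, which store iron, stood at 6096 to 9036 TPM and 4756 to 6489.5 TPM, the ubiquitin gene Ubb at 6645 to 8963 TPM, and Gnas, a G protein subunit, at 5072 to 6295 TPM. Rn45s, the ribosomal RNA precursor, which carries no poly(A) tail of its own, took 2.25% ± 0.855 of the counts. Hba-a2, an alpha globin chain of red blood cells, was the most uneven of the 40, at 571, 2483 and 10116 TPM.

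Ribosomal protein genes made up the largest of the 34 gene lists examined. Their 83 genes together held 24.7% ± 3.51 of the TPM, with 27.3%, 20.7% and 26.1% in the 3 samples. On the CPM scale, which does not divide by transcript length, the same genes held 7.16% of the counts. Of these genes, 74 reached 1 TPM and 72 reached 100 TPM in every sample, and their median mean level was 2425 TPM, against 11.7 TPM over the 9160 genes counted in every sample. Most stood close together between samples, such as Rpl10 at 2174, 2436 and 2643 TPM. A few did not: Rpl39 stood at 1671, 0 and 226 TPM and Rps21 at 0, 1455 and 11.5 TPM. Nearly all of these proteins are parts of every ribosome, yet 9 of the 83 genes had 0 or 1 count in at least 1 sample.

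Some ribosomal protein reads were assigned to copies of the genes. Rps27 held 1.1, 3.14 and 1.1 counts, while Rps27rt, a copy without introns on another chromosome, held 464, 269.9 and 494 counts and ranked among the 40 highest genes. Likewise Rpl26 held 13.3, 0 and 0 counts and the annotated pseudogene Gm15772 held 941, 750 and 824 counts. The stretches below, 90 coding bases of each parent gene and the matching bases of its copy, show how alike the members of a pair are. They come from the GENCODE vM21 transcripts (GRCm38), 5′ to 3′ in the sense of the gene, with bases that differ within a pair in capitals.
Rps27: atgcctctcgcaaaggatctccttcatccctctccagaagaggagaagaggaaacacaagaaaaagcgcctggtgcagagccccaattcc
Rps27rt: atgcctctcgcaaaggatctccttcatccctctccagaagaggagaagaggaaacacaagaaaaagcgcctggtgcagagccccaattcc
Rpl26: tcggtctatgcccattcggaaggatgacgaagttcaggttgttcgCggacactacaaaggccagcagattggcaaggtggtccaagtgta
Gm15772: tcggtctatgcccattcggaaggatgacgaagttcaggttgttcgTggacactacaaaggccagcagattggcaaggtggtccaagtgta
The Rps27 stretch runs from coding base 1 to 90 and lies in 2 exons within chr3:90213218-90213615 on the minus strand, and the Rps27rt stretch lies in its single exon at chr9:114982618-114982707 on the minus strand. The 252 coding bases of the pair have 0 mismatches. The Rpl26 stretch, coding bases 132 to 221, lies in 2 exons within chr11:68902406-68903231 on the plus strand, and that of Gm15772 lies in its single exon at chr5:3236562-3236651 on the plus strand. There are 2 mismatches in the 435 coding bases, 1 of them in this stretch. A read of mature mRNA from such a stretch fits both genes, or differs at 1 base. Values of either member of such a pair are uncertain, since RSEM, the counting program, divides shared reads by estimate. As the kit does not mark strand, reads of overlapping genes on opposite strands cannot be told apart either. The same holds for other near copies: Hba-a1 and Hba-a2 are 99.8% identical over 538 bases, and they held 102, 0 and 0 counts and 97.7, 603 and 1784 counts, with sums of 200, 603 and 1784 counts. Of the 252 genes named by the rule given with the methods, 21 had a copy in the files at 95% identity or more over at least 80% of the shorter transcript. Counting copies among all GENCODE transcripts, 69 of them had one, as had 27 of the 40 highest genes. Sod1 and Rps21 have such copies too, and values of genes with copies are uncertain.

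The gene lists below group transcripts by the cell compartment or type in which they are best known. The growth cone and actin list stood second by mean TPM at 4.49% ± 0.621, though in replicate 2 the respiratory chain list was higher, and on the CPM scale it held 3.30% against 4.55% for microtubule genes. Tmsb4x alone made up 44.2% of the list's TPM. Without Tmsb4x the list held 2.51%. Of its 20 genes, 19 reached 10 TPM in every sample. The actins Actb and Actg1 stood at 5439, 3622 and 5795 TPM and 4449, 3676 and 3964 TPM. Cfl1, cofilin, which severs actin filaments, stood at 4800.1, 2736 and 4059 TPM. Gap43 and Basp1, membrane proteins of growth cones, stood at 1226, 1078 and 890.0 TPM and 1946, 1482 and 1668 TPM. Replicate 1 was highest for Gap43 and Basp1, and replicate 3 for Actb. Marcks, a substrate of protein kinase C that binds actin, stood at 1146, 756 and 1149.7 TPM. Nrn1, neuritin, which promotes neurite growth, was near the limit of detection at 2.4, 0 and 1.14 TPM. Tmsb10 went the other way from Tmsb4x, with 1237, 3063 and 1405 TPM, highest in replicate 2.

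**Figure D2:**
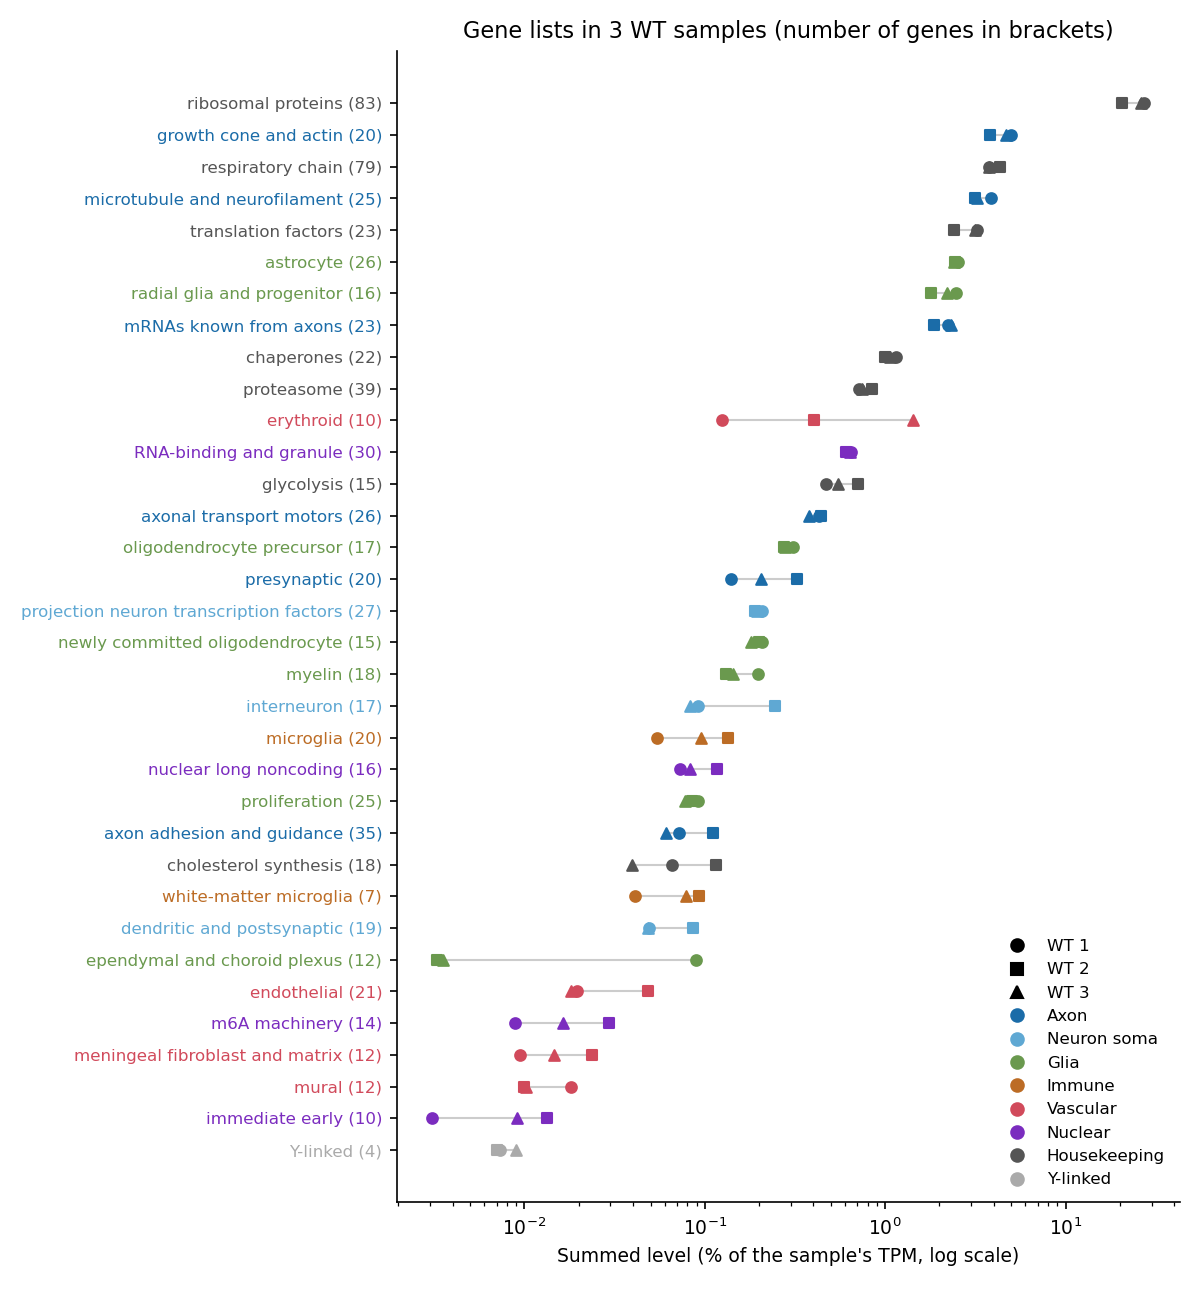
Summed level of each of 34 gene lists as % of the sample's TPM (log scale), with 1 symbol per WT sample, a grey line from the lowest to the highest sample, colours for the class of the list and the number of genes in brackets. Ribosomal proteins stand highest, and the lists of erythroid genes and of ependymal and choroid plexus genes span the widest ranges.

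Microtubule and neurofilament genes held 3.42% ± 0.384 of the TPM, with 22 of 25 at 1 TPM or more in every sample and a median mean level of 482 TPM. After the tubulins came the stathmins, which bind free tubulin: Stmn1 stood at 4717, 3279 and 4343 TPM, Stmn3 at 1798, 1495 and 1674 TPM and Stmn2 at 1714, 1503 and 1671 TPM. Tubb3, the neuronal beta tubulin, differed little between samples at 2041, 1883 and 2004 TPM. The microtubule-associated gene Mapt, which encodes the axonal protein tau, stood at 825, 860.2 and 801 TPM and Map2, whose protein is typical of dendrites, at 600.0, 374 and 471 TPM. Dcx, which marks young neurons, stood at 195, 137 and 175 TPM, and Map1b at 211, 229.9 and 110.3 TPM, lowest in replicate 3.

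Neurofilament transcripts, which build the axon skeleton of mature neurons, were low. Nefl stood at 2.78, 2.08 and 1.77 TPM and Ina at 5.62, 2.4 and 4.59 TPM. Nefm had 1 sample above 0 at 1.07, 0 and 0 TPM, and Nefh had no count in any. Per length, each of these lay far below Tubb3 in every sample, and a few counts decided its value: Nefl had 3, 3 and 2 counts.

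Axonal transport motors summed to nearly the same level in each sample, 4302, 4411 and 3806 TPM, or 0.417% ± 0.0322 of the TPM, with 25 of 26 genes at 1 TPM or more in every sample. Kif1a, the kinesin that carries synaptic vesicle precursors, stood at 1292, 1038 and 1169 TPM, with 6581, 6990 and 6259 counts, far above its relatives Kif1b at 105, 121 and 158 TPM and Kif5c at 292, 223 and 285 TPM. Kif3a was even at 42.6, 44.6 and 46.6 TPM. On the dynein side, which moves cargo back to the cell body, the intermediate chain Dync1i2 stood at 545, 493 and 523 TPM and the light chain Dynll1 at 439, 402 and 372 TPM. Dctn1, the largest dynactin subunit, was uneven at 65.2, 273 and 63.3 TPM, high in replicate 2.

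Presynaptic genes held 0.223% ± 0.0939 of the TPM and were highest in replicate 2, with summed levels of 1402, 3251 and 2048 TPM. Without replicate 2 they held 0.172%. The vesicle protein Syp and the fusion protein Snap25 did not share that pattern, at 327, 386 and 389.5 TPM and 359, 359 and 318 TPM. Rab3a, a small GTPase of synaptic vesicles, by contrast, stood at 31.9, 495 and 357 TPM. Stx1a, a syntaxin, stood at 50.7, 193 and 62.8 TPM. Of the 15 presynaptic genes with a mean of 20 TPM or more, 7 were at least 2-fold higher in replicate 2 than in both other samples. That held for 967 of all 3709 genes at this level, or 26.1%, against 52 for replicate 1 and 83 for replicate 3.

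Adhesion and guidance receptors of axons held 0.081% ± 0.0261 of the TPM over 35 genes, or 0.378% of the counts on the CPM scale. Of these genes, 25 reached 1 TPM in every sample and 7 reached 10 TPM. Ncam1, the neural cell adhesion molecule, stood at 254, 398 and 252 TPM and made up 37.2% of the list. L1cam, which holds growing axons together in bundles, stood at 46.8, 86.1 and 60.3 TPM, and Nfasc, neurofascin, an adhesion molecule of axons and glia, at 107, 86.7 and 78.3 TPM. The semaphorin coreceptor Nrp1 stood at 7.48, 50 and 4.48 TPM and the Wnt receptor Ryk at 27.5, 68.3 and 26.1 TPM, both highest in replicate 2. The slit receptors Robo1 and Robo2 stood at 5.13, 2.59 and 1.63 TPM and 6.62, 3.19 and 5.34 TPM, and the netrin receptor Dcc at 0.15, 0.59 and 0.88 TPM.

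Among 23 mRNAs that earlier work found in axons, 19 reached 1 TPM and 12 reached 100 TPM in every sample, with 2.14% ± 0.235 of the TPM. Besides Actb, Cfl1, Tubb3 and Gap43, these included Cox4i1, a respiratory chain subunit at 4753, 4533 and 5426 TPM. The chaperones Calr and Hspa5 stood at 1082, 1119.5 and 1048 TPM and 637, 386 and 523 TPM. All of these genes are on other lists too, as are Map1b, Nrn1, Vim and Atp5g1. Rhoa, a regulator of the growth cone, stood at 347, 402 and 488 TPM, and Kpnb1, an importin, at 35.8, 24.5 and 32.5 TPM. Sod1, superoxide dismutase, had 0, 314 and 196 counts, so it was at 0 in replicate 1 and among the 500 highest genes by its mean. Being on this list says nothing of where in the tract a transcript lay, as most of its members are made by glia too.

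Transcription factors of cortical projection neurons, whose cell bodies lie outside the tract, held 0.198% ± 0.00974 of the TPM, with 2088, 1906 and 1936 TPM in the 3 samples. Of 27 genes, 15 reached 1 TPM and 6 reached 100 TPM in every sample. The highest were factors also made by other cells of the young brain: Sox4 at 717, 571 and 571 TPM, Pou3f3 at 302, 194 and 268 TPM, and Lhx2 at 218, 228 and 230.2 TPM. Cux1 and Cux2, factors of upper-layer neurons, stood at 101, 119 and 89.8 TPM and 8.09, 12.9 and 6.47 TPM. Tbr1, a factor of deep-layer neurons, stood at 32.7, 67.5 and 33.5 TPM. Neurod6 had 0, 190 and 1 counts, while Neurod2, Neurod1, Bcl11b and Pou3f1 had no count in any sample.

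A count of 0 was not a safe sign of absence in these samples. Several genes with no count that are needed in every cell are described below. Of the 27 transcription factors, 11 have 1 to 3 exons, a class of genes often at 0 or 1 count here. Their part in these zeros was not tested.

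Dendritic and postsynaptic genes held 0.061% ± 0.0212 of the TPM. The glutamate receptor subunit Gria2, which glia also make, led at 215, 166 and 208 TPM, followed by the scaffold Dlg4 at 115, 126 and 108 TPM. Camk2b stood at 72.3, 76.8 and 70.5 TPM and Camk2a at 6.02, 5.81 and 6.05 TPM, subunits of a kinase of synapses, both even between samples. Nrgn, a calmodulin-binding protein of dendrites, had 4, 266 and 6 counts, nearly all in replicate 2. Genes of interneurons held 0.14% ± 0.0922, of which the neuropeptide Npy made up 51.8%, at 304, 1702 and 174 TPM. Without replicate 2 the list held 0.087%. The homeobox factors Dlx1 and Dlx2 were steady at 293, 279 and 249 TPM and 127, 99.7 and 113 TPM. Gad1 and Gad2, the enzymes of GABA synthesis, stood at 24.6, 57 and 34.6 TPM and 13.2, 36.4 and 6.67 TPM, both highest in replicate 2.

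**Figure D3:**
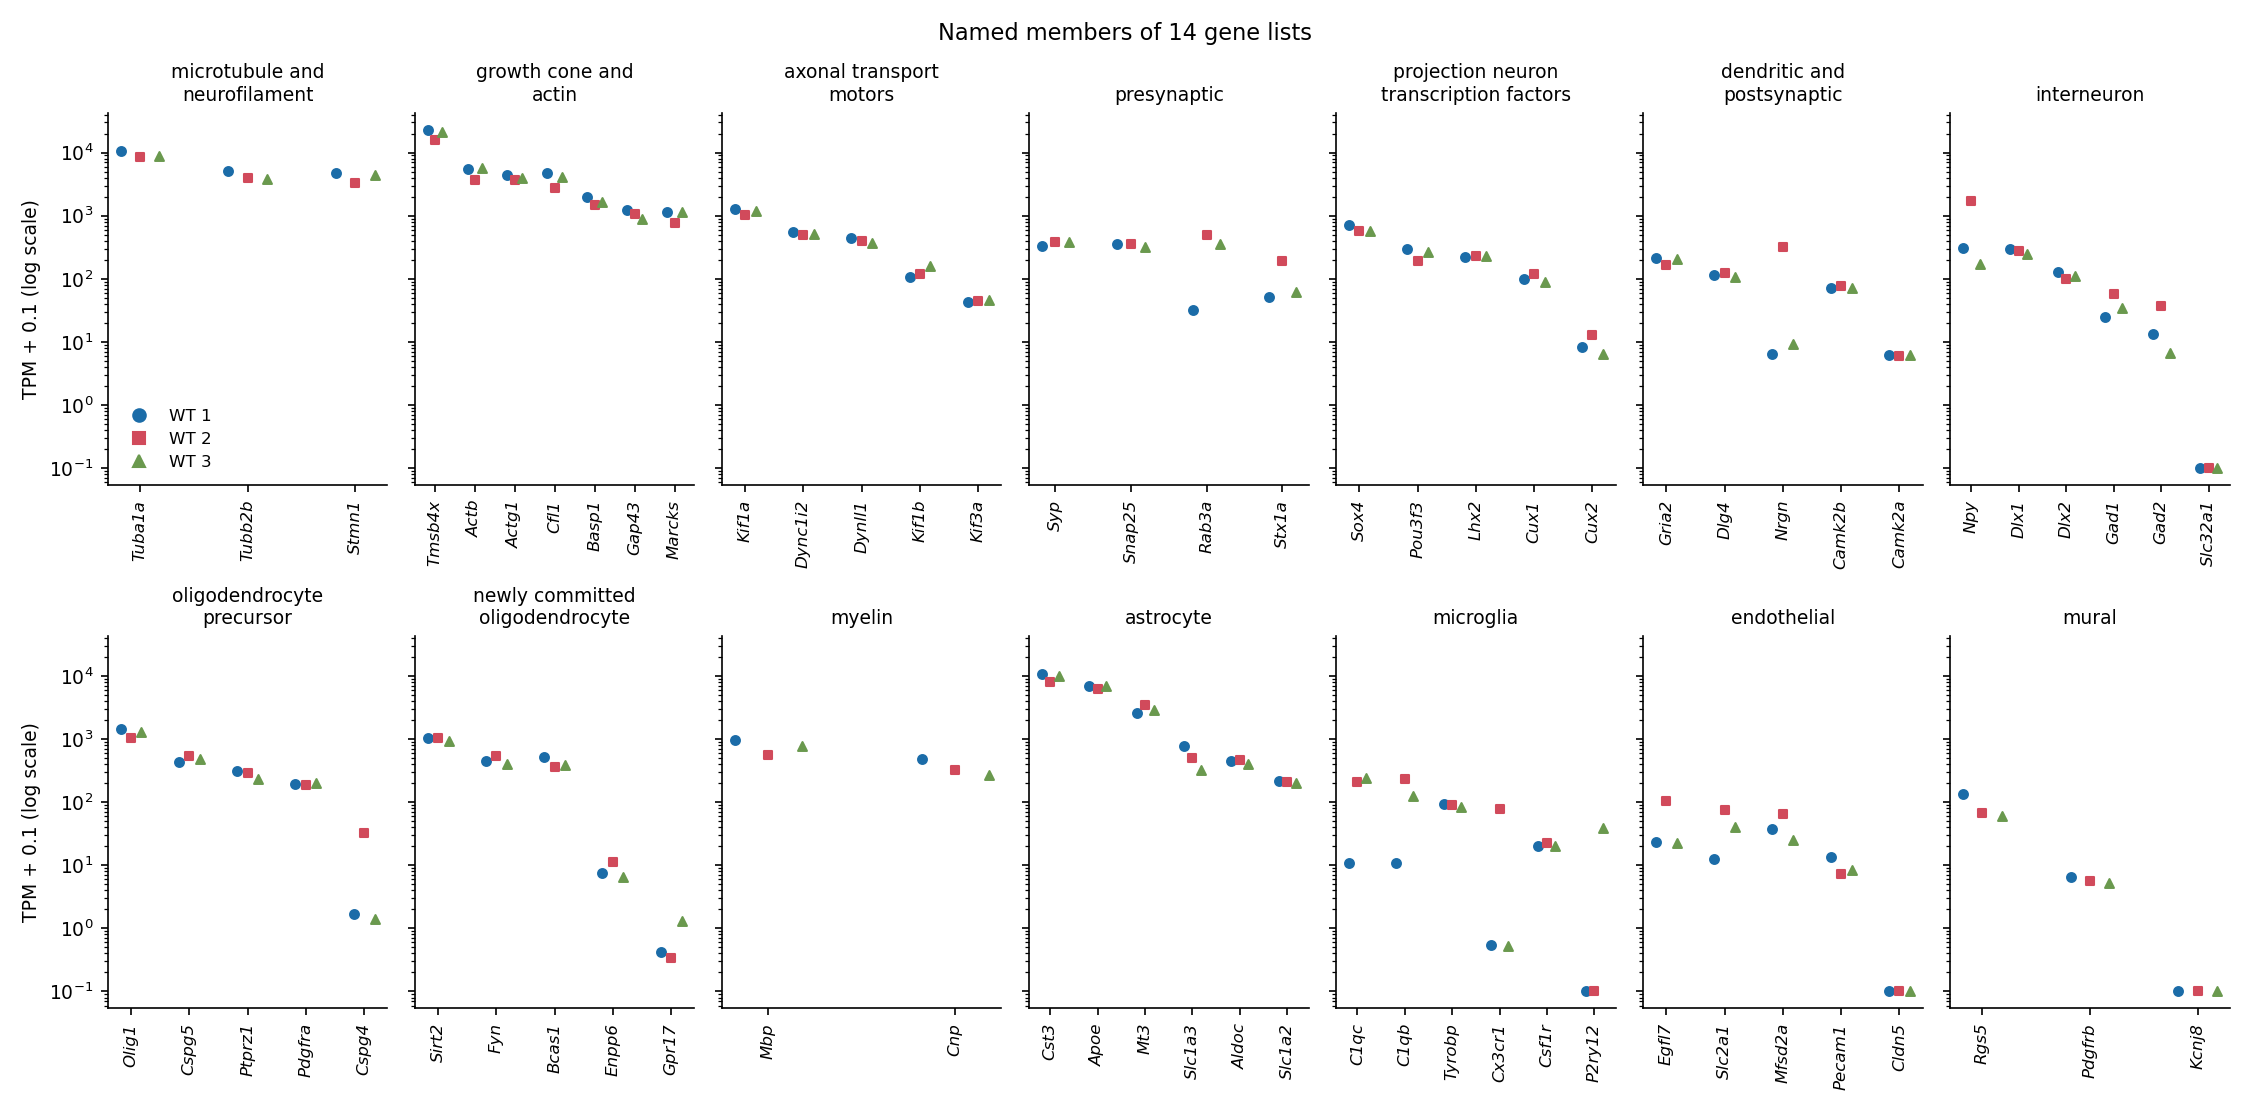
Level in TPM plus 0.1 (log scale) of members of 14 gene lists that the text names, among the 5 highest or the first 3 written of each list, with 1 symbol per WT sample. The 3 symbols lie close together for genes such as Tuba1a, Kif1a, Pdgfra and Slc1a2, while Nrgn, Cspg4, Cx3cr1 and several endothelial genes stand higher in WT replicate 2 and Cldn5, Slc32a1 and Kcnj8 are at 0 in all 3.

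Astrocyte genes held 2.46% ± 0.0793 of the TPM, the steadiest sum of the glial lists, with 23 of 26 genes at 1 TPM or more in every sample. The list rests on Cst3, Apoe and the metallothionein Mt3, at 2530.1, 3512 and 2905 TPM. Without Cst3 it held 1.5%. Aldoc, an enzyme of glycolysis in astrocytes, stood at 446, 459 and 397 TPM, and the glutamate transporters Slc1a3 and Slc1a2 at 771, 498 and 326 TPM and 214, 209 and 201 TPM. Gfap, the intermediate filament of white-matter astrocytes, stood at 536, 627 and 663 TPM. Aqp4, the water channel of astrocyte endfeet, was low at 1.31, 1.97 and 1.24 TPM.

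Beside the even sum of the astrocyte list, some members were uneven. Of its 20 genes at a mean of 20 TPM or more, 9 were at least 2-fold higher in replicate 2 than in both other samples, as were 967 of all 3709 genes at this level (26.1%). Among the 9 were Mt1 at 56.3, 725 and 54.6 TPM and Mt2 at 17.9, 358 and 11.6 TPM. Clu, a secreted chaperone, stood at 139, 351 and 92 TPM, and the gap junction gene Gja1 at 34, 207 and 83.4 TPM. Cst3 and Apoe, in contrast, were lowest in replicate 2.

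Genes of radial glia and progenitors held 2.16% ± 0.346, of which Fabp7 made up 58.4%. Dbi, an acyl-CoA-binding protein, stood at 6169, 4252 and 5424 TPM, the growth factor Ptn at 1398, 1346 and 1434 TPM and the intermediate filament Vim at 1204, 866 and 1110.5 TPM. Sox2, a factor of progenitors with a single exon, stood at 417, 282 and 423 TPM. Nes, nestin, an intermediate filament of progenitors, stood at 24.3, 48.8 and 113 TPM, and the Notch target Hes5 at 3.29, 124 and 50.3 TPM. Proliferation genes held 0.0848% ± 0.0068, with 19 of 25 at 1 TPM or more in every sample. The replication clamp Pcna stood at 217, 151 and 118 TPM, Ccna2, a cyclin of S phase, at 101, 68 and 136 TPM, and Top2a, topoisomerase II, at 41.2, 26.8 and 25.9 TPM. Mki67 was uneven at 5.72, 50.5 and 33.8 TPM.

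The oligodendrocyte lineage was represented from precursor to early myelin genes. Precursor genes held 0.287% ± 0.018 of the TPM, and their summed levels of 3076, 2747 and 2786 TPM were close together. Olig1, a transcription factor of the lineage, was the highest at 1446, 1030.1 and 1279 TPM and made up 43.6% of the list. Pdgfra, the growth factor receptor by which precursors are known, was nearly the same in each sample at 190, 186 and 204 TPM. Ptprz1, a receptor phosphatase of precursors and astrocytes, stood at 308, 287 and 233 TPM, and the proteoglycan Cspg5 at 428, 535 and 477 TPM. Cspg4, the NG2 proteoglycan, went against them with 8, 215 and 7 counts. Olig2 and Sox10, factors that every cell of the lineage makes, had 7, 1 and 4 counts and 0, 1 and 1 counts. These levels stood far below that of Olig1.

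On the list of newly committed oligodendrocytes, Bcas1 stood at 522, 360.5 and 387 TPM and the kinase Fyn at 447, 540.4 and 400.1 TPM. Sirt2, a deacetylase of the lineage, stood at 1025, 1031 and 928 TPM. Enpp6, a phosphodiesterase of cells about to myelinate, stood at 7.36, 11.1 and 6.47 TPM, and Gpr17, a receptor of the same stage, at 0.32, 0.24 and 1.21 TPM. The list held 0.196% ± 0.0145 of the TPM, of which Sirt2 made up 50.7%. Of its 15 genes, 4 reached 10 TPM in every sample, and the median mean level was 7.76 TPM. Myelin genes held 0.157% ± 0.0348. Mbp, myelin basic protein, stood at 969, 558 and 776 TPM, and Cnp, an enzyme of myelin-forming cells, at 476, 323 and 272 TPM. Both were highest in replicate 1. Mag, of the innermost myelin layer, stood at 6.65, 2.77 and 4.22 TPM, and 7 of the 18 myelin genes, Mobp and Mal among them, had no count in any sample. Of all 24411 genes, 11970 had no count in any sample, so these zeros are not read as a trait of myelin genes. Genes of early myelin such as Mbp and Cnp were well above the floor.

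Ependymal and choroid plexus genes separated 1 sample from the others. Ttr, transthyretin, the main secreted product of the choroid plexus, had 510, 15 and 14 counts, and made up 96.3% of the list. Other choroid plexus genes did not follow it: Kcne2, Folr1, Kl, Aqp1 and Otx2 had no count in any sample, and Foxj1, the factor of ciliated ependymal cells, had none either. Ccdc153, a ciliary gene, had 2, 6 and 4 counts.

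Microglial genes held 0.095% ± 0.0404 of the TPM, with 541, 1349.8 and 959 TPM summed in the 3 samples and 0.075% without replicate 2. Csf1r, the receptor that microglia need to survive, was even at 20.1, 22.7 and 19.9 TPM. Tyrobp, a signalling adaptor, was even as well at 92.7, 89.8 and 84.2 TPM. The complement genes C1qb and C1qc were not, at 10.6, 234 and 126 TPM and 10.7, 205 and 242 TPM, low in replicate 1. Cx3cr1, the fractalkine receptor, had 1, 226 and 1 counts, and P2ry12, the purine receptor of resting microglia, had 0, 0 and 53 counts, so each was counted in 1 sample almost alone. Genes of the microglia that gather in white matter around birth held 0.0708% ± 0.027, and 95.9% of that was Spp1, osteopontin, at 390.1, 886 and 761 TPM. Gpnmb, Itgax and Clec7a, which mark these cells more narrowly, stood at 3.12, 5.72 and 2.12 TPM, 2.93, 4.11 and 1.6 TPM and 0, 1.92 and 1.52 TPM.

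Vascular genes were low except for those of blood. The endothelial list held 0.0286% ± 0.017, with 18 of 21 genes at 1 TPM or more in every sample, 4 at 10 TPM or more and a median of 8.51 TPM. Without replicate 2 it held 0.0188%. Egfl7, secreted by endothelium, stood at 23.4, 104 and 22.4 TPM, the glucose transporter Slc2a1 at 12.4, 76.2 and 39.5 TPM and the lipid transporter Mfsd2a at 37.4, 63.6 and 25.1 TPM. Each was highest in replicate 2, while Pecam1, an adhesion molecule of endothelium, was highest in replicate 1 at 13.2, 7.21 and 8.37 TPM. Cldn5, the tight junction protein, has 1 exon and had no count in any sample. Mural cells, the pericytes and smooth muscle around vessels, held 0.0128% ± 0.00469, led by Rgs5 at 135, 67.9 and 61 TPM and Pdgfrb at 6.4, 5.52 and 5.22 TPM. Fibroblast and matrix genes held 0.0159% ± 0.00714, led by the basement membrane collagen Col4a1 at 39.9, 98.3 and 67.2 TPM. The fibrillar collagens Col1a1 and Col3a1 stood at 2.13, 1.34 and 2.36 TPM and 8.28, 8.49 and 9 TPM.

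Of the 34 lists, erythroid genes had the widest range between samples after the ependymal list. They summed to 1239, 4012 and 14245 TPM, a range of 11.5-fold. For the sum of Hba-a1 and Hba-a2, replicate 3 was highest and replicate 1 lowest. Hbb-bs and Hbb-b1, beta globins, had 0, 183 and 228 counts and 0, 239 and 608 counts. Alas2, the haem enzyme of red cell precursors, stood at 1.93, 0 and 9.86 TPM.

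Long noncoding RNAs known to stay in the nucleus held 0.0908% ± 0.023 of the TPM. On the CPM scale they held 0.417% of the counts, and members with more than 3 exons held 0.0349% of the TPM. Of the list's TPM, Malat1, a nuclear speckle RNA, made up 51.8% at 557, 383 and 471 TPM, or 2396, 2177 and 2129 counts. The imprinted Meg3 and the neuronal Miat had 192, 2622 and 210 counts and 191, 1343 and 336 counts, both highest in replicate 2, while Rian, from the same imprinted cluster as Meg3, was even at 83.4, 76.1 and 103 TPM. Neat1, the RNA of paraspeckles, had no count in any sample. RNA-binding proteins that package mRNA for transport held 0.632% ± 0.0206, led by Ybx1 at 2671, 1941 and 2535 TPM and Hnrnpa2b1 at 772, 727 and 581 TPM. Fmr1, the fragile X protein, stood at 12.7, 6.37 and 7.36 TPM, and its relative Fxr1 at 62.2, 78.1 and 75.6 TPM.

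Enzymes and readers of m6A held 0.0181% ± 0.0103 of the TPM over 14 genes, 7 of which reached 1 TPM in every sample. Mettl14 and Mettl3, the subunits of the writer complex, had 11, 8 and 5 counts and 11, 8 and 3 counts. The demethylase Fto stood at 31.2, 107 and 21 TPM and the nuclear reader Ythdc1 at 22.9, 80.9 and 57.8 TPM, both highest in replicate 2. Immediate early genes, which neuronal activity and tissue handling induce, held 0.00853% ± 0.00519, with 0 of 10 at 1 TPM or more in every sample. Fos had 2, 1 and 3 counts and Jun 0, 200 and 165 counts, while Fosb and Egr1 had none. Y-linked genes were counted in all 3 samples, with 54, 80 and 51 counts for Eif2s3y, and Xist had no count in any.

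Genes of energy supply and protein turnover filled much of the remaining range. Respiratory chain genes encoded in the nucleus held 3.96% ± 0.329, with 58 of 79 at 1 TPM or more in every sample. Cox4i1 and Cox6a1, subunits of cytochrome oxidase, stood at 4753, 4533 and 5426 TPM and 5269, 3583 and 3587 TPM, and Atp5e, of ATP synthase, at 3036, 2600.4 and 2855 TPM. Glycolysis genes held 0.576% ± 0.12, all 15 at 1 TPM or more in every sample. Pkm, pyruvate kinase, was the steadiest of the 500 highest genes, at 756, 760.2 and 758 TPM, whereas Tpi1 and Ldha, enzymes of the same pathway, stood at 1.22, 385 and 3.49 TPM and 1.2, 412 and 72.6 TPM. Chaperones held 1.07% ± 0.0743, led by Hspa8 at 3451, 2479 and 3077 TPM. Translation factors held 2.94% ± 0.461, and the proteasome 0.767% ± 0.0659, led by Psmb4 at 1037, 922 and 1378 TPM. Cholesterol synthesis genes held 0.0735% ± 0.0385, led by Hmgcs1 at 432, 196 and 60.3 TPM, which was highest in replicate 1, while Mvd at 14.1, 124 and 25.8 TPM was highest in replicate 2.

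Ordered by their summed level, the 34 lists formed a series in which 28 of 33 neighbouring pairs overlapped in range between samples and 5 did not. The sums were separated between ribosomal proteins and growth cone genes, between mRNAs known from axons and chaperones, between chaperones and the proteasome, between glycolysis and transport motors, and between transport motors and precursor genes. Counting each gene once within a class of lists, the axon lists held 9.57% ± 0.811 of the TPM and glial lists 5.38% ± 0.508. Lists of neuronal cell bodies held 0.399% ± 0.108, immune lists 0.166% ± 0.0671 and nuclear lists 0.750% ± 0.0182. Vascular lists, with the globins, held 0.707% ± 0.677 and housekeeping lists 34.1% ± 3.5. Vim counts in both the axon and glial classes, and Calr, Hspa5, Cox4i1 and Atp5g1 in both the axon and housekeeping classes. The labels name the tissue as callosal axon. Tubulin, stathmin and actin genes were abundant while neurofilament genes were low. Glial genes such as Fabp7, Cst3 and Apoe were abundant too. Microglial genes, and vascular genes other than globins, were present at lower levels. Many genes of the axon lists are made in all cells, so these sums do not measure the share of axonal RNA.

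Outside the lists, the most abundant noncoding genes included copies of protein-coding genes, among them Gm12191, a copy of the ribosomal gene Rpl30, at 1128, 2797 and 2575 TPM, and Gm10052, a copy of Hnrnpa1, at 1327, 951 and 1362 TPM. They are 99.7% and 100% identical to transcripts of their parent genes, so the split of reads between them is uncertain. Snhg6 and Snhg1, hosts of small nucleolar RNAs, stood at 1669.9, 973 and 1890.1 TPM and 668, 382 and 526 TPM, and the neural noncoding RNA Pantr1 at 877, 581 and 509 TPM. Mir6236, at 0, 986 and 1341 TPM, rested on 0, 4 and 2 counts, since a very short transcript turns single counts into a high TPM. Transcripts of the histone Hist1h2ao stood at 767, 14.1 and 764 counts and those of its identical copy Hist1h2ap at 79.5, 631 and 171 counts, which nearly exchange places between samples. Over all 68 replication-dependent histone genes, whose mRNAs mostly lack a poly(A) tail, the sums were 864, 651 and 942 counts.

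The steadiest genes among the 500 highest were Pkm, Slc25a4, Ap2m1, Chmp4b, Hsp90aa1, Dynlt1b, Nap1l4, Sept7, Ldhb and Psap, with coefficients of variation of 0.254% to 2.60%. Ap2m1, a clathrin adaptor, stood at 482, 479 and 483 TPM, and Slc25a4, the mitochondrial exchanger of ADP and ATP, at 1788, 1802 and 1793 TPM. Their counts rose with depth, for example 895, 1231 and 937 counts for Slc25a4. These genes were picked as the smallest of 500 coefficients with n = 3, and the part of chance in that choice was not tested. Ap2m1, Hsp90aa1, Dynlt1b and Ldhb have near copies among the GENCODE transcripts, so their values are uncertain. Most genes were less even. Among genes with a mean of 1000 TPM or more, 63.8% lay within 1.5-fold over the 3 samples, and the median SD of log2(TPM + 1) was 0.26. For genes between 10 and 30 TPM the share within 1.5-fold was 17.3%, with a median SD of 0.71. As a median over genes, the variance of depth-scaled counts was 1.22 times the mean at 1 to 3 TPM and 17.2 times at 30 to 100 TPM. Counting alone gives a ratio of 1 on average, not as a median, so 1.22 cannot be read as close to counting error.

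A set of genes was high in 1 or 2 samples and at or near 0 in the rest. Of 3709 genes with a mean of 20 TPM or more, 625, or 16.9%, differed by 8-fold or more between the highest and lowest sample, after adding 1 TPM. Replicate 2 was the highest for 484 of them, replicate 3 for 86 and replicate 1 for 55. Replicate 1 was the lowest for 373, replicate 3 for 231 and replicate 2 for 21, with ties given to the lower replicate number. In 271 of the 625 genes the lowest sample had 0 or 1 count. Without replicate 2, 216 of 3156 genes differed by 8-fold. The 15 protein-coding genes with the largest spread, the globins among them, were of this kind. Mif, a cytokine and tautomerase, had 0, 292 and 0 counts, Rpl36al 0, 175 and 0 counts, Ndufs6, of respiratory complex I, 0, 119 and 0 counts, and Timm8b, of mitochondrial import, 0, 114 and 0 counts, all in replicate 2 alone. Nme2, a nucleotide kinase, had 0, 294 and 196 counts, and Romo1 0, 52 and 108 counts, at 0 in replicate 1. The gene 1810022K09Rik had 0, 0 and 59 counts, in replicate 3 alone. Mif, Rpl36al, Nme2, Romo1 and 1810022K09Rik have near copies among the GENCODE transcripts, so their values are uncertain.

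**Figure D4:**
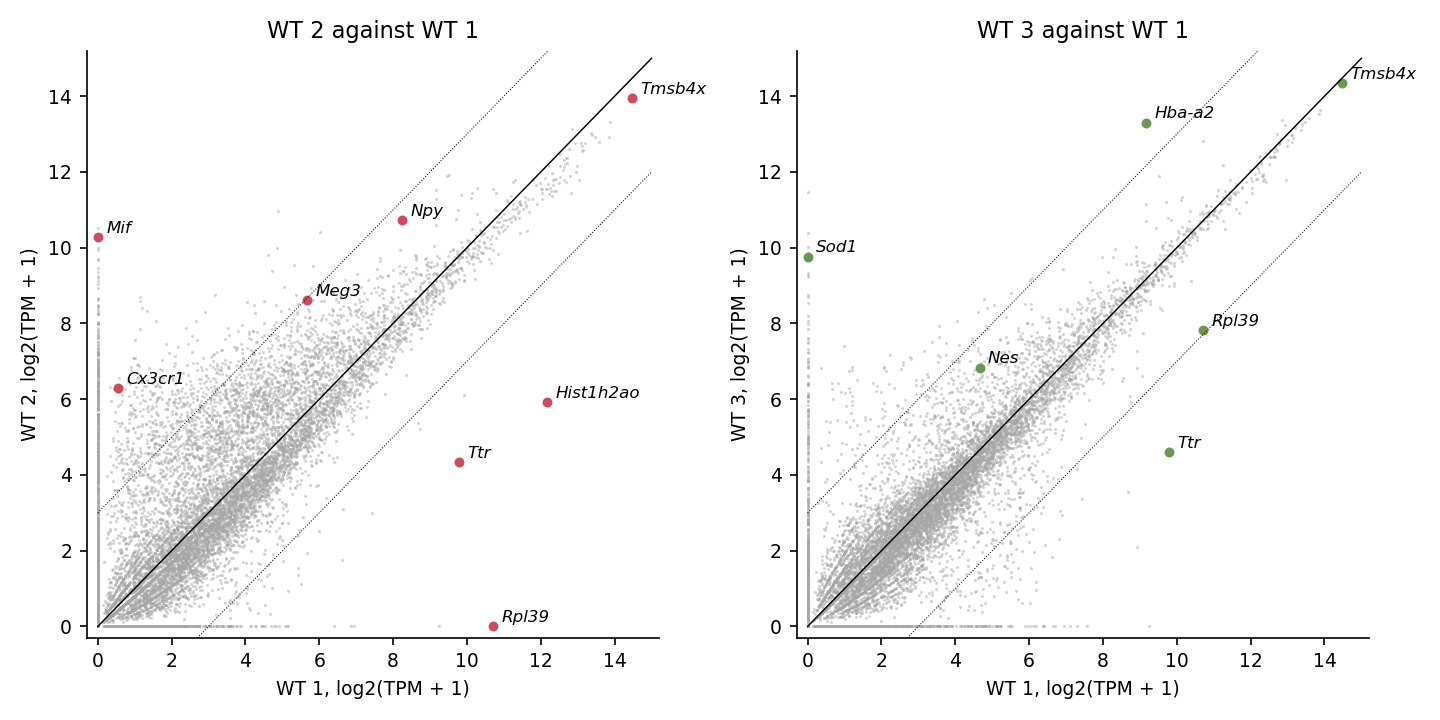
Level of each gene as log2(TPM + 1) in WT replicate 2 (left) and WT replicate 3 (right) against WT replicate 1, with 1 grey point per gene, a solid line of equality and dotted lines 8-fold above and below it. In the left panel a second band of genes lies above the line of equality, and points on either axis are genes at 0 in 1 of the samples, such as Mif and Rpl39.

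Genes with few exons were more often at 0 or 1 count in a sample. Among genes at 20 TPM or more in at least 1 of the other samples, those with 2 exons were at 0 or 1 count in 63.6%, 10.3% and 57.7% of cases in replicates 1, 2 and 3. For genes with 1 exon the shares were 51.0%, 6.35% and 44.0%, and for genes with more than 10 exons 1.48%, 0.121% and 1.85%. The share thus fell with exon number in each sample beyond 2 exons. Replicate 2 had the lowest share in each exon class, but genes high in replicate 2 alone enter only the pools of the other samples. The pools differed, with 102, 63 and 100 genes of 1 exon, so the shares cannot be compared between samples. Transcript length, which goes with exon number, was not compared.

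**Figure D5:**
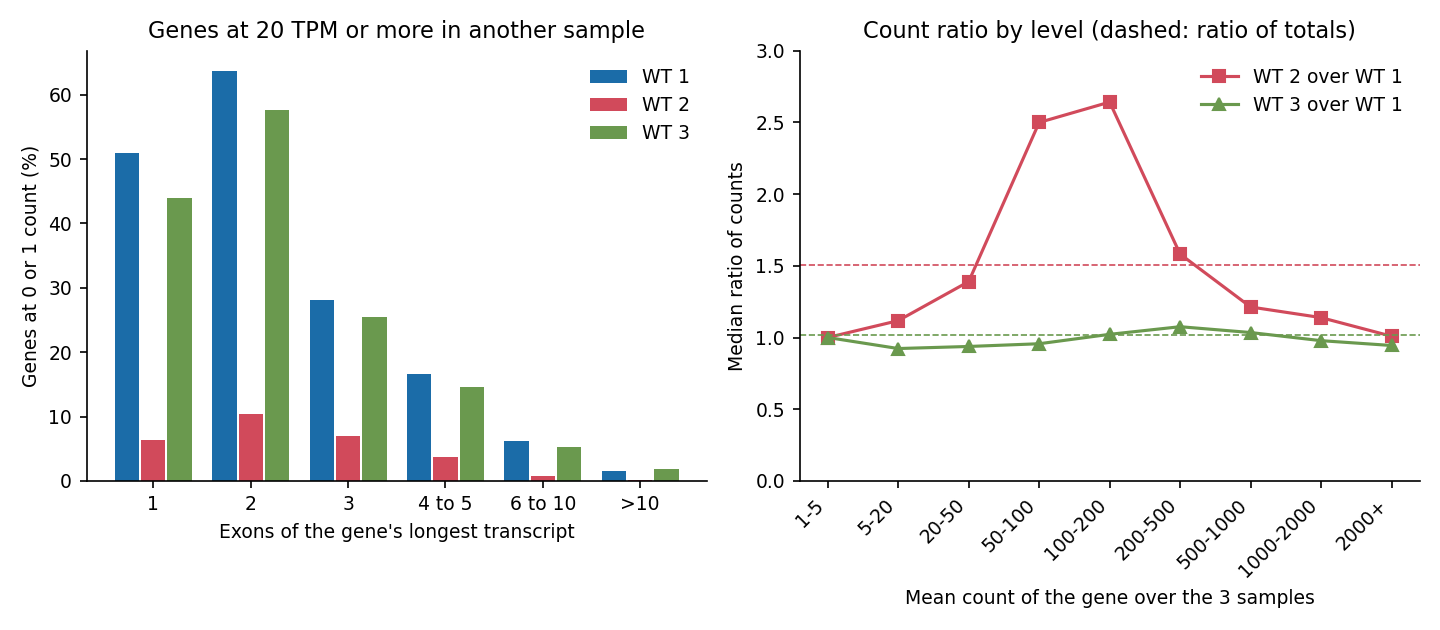
Share in % of genes (left) at 0 or 1 count in a sample, among genes at 20 TPM or more in another WT sample, by the number of exons of the longest transcript, with 1 bar per sample; right, median ratio of counts of WT replicates 2 and 3 to WT replicate 1 by the mean count of the gene, with dashed lines at the ratio of total counts. Shares reach 63.6% for genes with 2 exons, and the ratio of replicate 2 peaks at 2.64 between 100 and 200 counts.

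Protein complexes that every cell assembles gave a check on zeros. Of 31 subunits of the 26S proteasome, 23 reached 1 TPM in every sample with a median of 156 TPM over all, yet 8 had 0 or 1 count in at least 1 sample. Psmb3, a core subunit, had no count in any sample, and Psmc1, of the base, had 0, 1 and 0 counts. Of 12 subunits of the translation initiation factor eIF3, Eif3e had 0, 1 and 0 counts while Eif3f stood at 789.7, 816 and 1079 TPM. Among respiratory chain genes, Cox7c, Uqcr10, Ndufs5 and Ndufb4 had no count in any sample. All 8 subunits of the chaperonin CCT were present, with a median of 156 TPM. A gene listed at 0 here is therefore not shown to be absent from the tract.

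For genes with several transcripts, RSEM's estimate of the main transcript was the same in each sample for most of the 10 genes examined. The share of the main transcript, the percent of the gene's TPM given to it, was 99.6%, 99.6% and 99.4% for Apoe and 98.8%, 98.4% and 99% for Cox4i1. Atp5g3, of ATP synthase, stood at 74.9%, 72.2% and 75.8%. The main transcript was not the same in each sample for 3 genes. For Gnas the shares of the transcript with the highest mean were 51.5%, 48.4% and 51.2%. For Rpl19 they were 99.4%, 3.55% and 100%, and for Hba-a2 0%, 73.5% and 81%. For Rpl38 the main transcript of 285 bases took 53%, 78.3% and 70.8%. These shares are estimates from short fragments and carry no error of their own.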

How the data were processed

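Polyadenylated RNA of the corpus callosum was sequenced in 3 WT samples, grouped by their titles. Per the submitters' processing notes, reads were processed with STAR 2.7.10b and RSEM 1.3.3 on mm10. For the annotation release, strand setting and filters, nothing is stated (not given in the sources used here). The deposited tables hold, per transcript, RSEM's expected count, TPM, the percent of the gene's TPM in each transcript, and transcript length and effective length, which are no signal of expression and were checked only. Expected counts and TPM were summed per gene, with no rounding, in Python 3.11.15 with pandas 2.3.3 and numpy 2.4.6, which was tested on simulated data. Members, lists and rules were chosen with earlier results of these data known.

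Levels are means ± SD over n = 3, with no test. Named genes are the 40 of highest mean TPM, the 4 highest and the first 3 members of each list, the 15 protein-coding genes of largest SD of log2(TPM + 1) at 20 TPM or more, the 10 highest noncoding genes, the 10 steadiest of the top 500, and Mettl14, Mettl3, Xist and the Y-linked genes. Among these, transcript shares are given for up to 10 genes with 2 or more transcripts and 50 counts in every sample. Genes outside this rule, such as Mapt, Map2, the neurofilament genes, Gfap, Olig2, Sox10, Mt1 and Tpi1, were named after their values were seen, as were the protein complexes, the histones and the copies. Lists were written from general knowledge, and some share genes (Actb, Cfl1, Gap43, Nrn1, Map1b, Tubb3, Vim, Cox4i1, Atp5g1, Calr, Hspa5). Gene types come from RefSeq (GRCm38.p6), with 94 of 24411 genes unmatched, and exon numbers and sequences from GENCODE vM21. Copies were searched with BLASTN 2.17.0+ at 95% identity over 80% of the shorter transcript. Alternatives were CPM, thinned counts, other thresholds, gene subsets and each sample left out, and, chosen after seeing the data, median-of-ratios scaling. Some genes that the rule names are not reported here.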

Additional observations from a re-analysis of the deposited data

How the results depend on the processing

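Leaving out a sample moved some lists by over 1.5 times: ependymal and choroid plexus genes held 0.00342% without replicate 1, interneuron genes 0.087% and endothelial genes 0.0188% without replicate 2, and erythroid genes 0.263% without replicate 3. With 3 samples, neither this nor the median can move a mean past the SD, so the SD is no measure of stability there. On the CPM scale, which is not per length, 26 of 34 lists moved by more than the SD. Ribosomal proteins held 7.16% of the counts, respiratory chain genes 1.41%, radial glia genes 1.05%, transport motors 1.43%, chaperones 1.65%, RNA-binding genes 1.19%, adhesion and guidance genes 0.378%, nuclear noncoding RNAs 0.417%, projection neuron factors 0.437%, dendritic genes 0.182%, newly committed oligodendrocyte genes 0.333%, proliferation genes 0.171%, cholesterol genes 0.147%, fibroblast genes 0.0648%, m6A genes 0.0438%, immediate early genes 0.016% and Y-linked genes 0.0131%, while erythroid genes held 0.140%, within their wide SD. Further, microtubule genes held 4.55%, growth cone genes 3.30%, oligodendrocyte precursor genes 0.648%, myelin genes 0.250%, astrocyte genes 2.12% and endothelial genes 0.0486%. There the 100 highest genes held 29.0%, and 16 of the 40 highest genes by TPM were among the 40 highest by CPM. Without its highest member, a list moved in 23 of 34 cases: microtubule genes then held 2.50%, growth cone genes 2.51%, precursor genes 0.162%, myelin genes 0.0806% and astrocyte genes 1.5% of the TPM. With members of more than 3 exons only, growth cone genes held 1.74%, precursor genes 0.161% and astrocyte genes 1.15%.

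The number of genes 8-fold apart was 216 to 577 on leaving out a sample, the lowest without replicate 2. It was 968 from a mean of 10 TPM and 232 from a mean of 50 TPM. Depth limits the lowest genes. No paired analysis was possible because there is 1 group and no test.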
